A study of Rattus norvegicus with 167 samples.

Results

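The lesion control (LC) cord caudal to a complete transection was compared between its late days, 60 and 90 after surgery (6 arrays), and its intermediate days, 10, 20 and 30 (9 arrays). These 15 arrays, 5 of the 56 groups of the series, were chosen by their labels alone. The rats had the spinal cord cut through at mid-thoracic level with removal of 5 mm of cord, and LC animals received no implant. From knowledge of the study the animals were adult female Wistar rats, whereas the labels give no strain, sex or age. Each of the 5 groups held 3 arrays of the 5 mm of cord just below the gap. Other sets of 15 arrays from the same days serve for comparison: LC cord just above the gap (rostral LC), and caudal cord of rats whose gap was bridged by a chitosan tube, either empty (ET) or carrying neurotrophin-3 (NT3). Uninjured cord (3 arrays) gives the reference level. Whether the arrays of a group came from separate animals is not in the labels. The p-values therefore reflect no more than the spread between arrays, and the number of arrays limits the precision. That spread was pooled over all groups of the fit, which hold other days and treatments besides the 15 arrays.

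Below a complete transection the cord loses all descending input, while its own circuits and the entering sensory axons remain. In the weeks after injury, fibroblasts deposit a collagen-rich matrix, astrocytes divide and form a border, and microglia and blood-derived macrophages take up myelin debris. Later the matrix is remodelled, division ends, and lipid-laden phagocytes persist in the degenerating tracts.

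Values are the authors' log2 expression values, and a difference of 1 is a change of 2-fold. "Rose" and "fell" refer to late against intermediate days and to genes with an adjusted p below 0.05 (limma, Benjamini-Hochberg over 12040 genes). Differences are given ± the standard error of the fit. The tissue carried the markers of cord in all 15 arrays: the myelin gene Mbp lay between 14.5 and 14.8, the astrocyte gene Gfap between 14.0 and 14.4, the synaptic gene Snap25 between 12.9 and 13.6, and the microglial gene Csf1r between 10.4 and 10.9. The probe set for the synaptic gene Syt1 was at background in all 15 arrays (5.01 to 5.85, below the 40th percentile of each). Values of other genes near that range or lower may lie at the floor of the arrays. In bulk tissue, fewer cells of a type and less RNA per cell cannot be told apart.

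Some arrays stood apart in ways the groups do not describe. RT1-CE10, a class I histocompatibility gene, lay between 11.19 and 11.67 on day 30 and between 10.17 and 11.45 on day 90, but between 7.12 and 7.59 on days 10, 20 and 60. Days 30 and 90 are called RT1-CE10-high and the others RT1-CE10-low. These classes cannot be told apart from day, so values were also computed within them. A list of 10 dorsal root ganglion neuron genes averaged 8.90 in the third array of day 60 and 8.37 in the first of day 90, and 7.20 to 7.70 in the other 13. The muscle list reached 7.55 in 1 intermediate array (6.17 to 6.56 in the late arrays), with Ckm and Myh4 below the 40th percentile of every array, Acta1 (5.06 to 8.47) above it in 3 arrays and Tnnt3 (4.78 to 7.13) above it in 1. The erythrocyte list ran from 7.57 to 8.72 in the intermediate and from 7.13 to 7.70 in the late arrays. The adipocyte list reached 8.01 in the second array of day 20, with its defining genes Adipoq and Plin1 at background throughout. What part these had in the results was not tested beyond the values given below.

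**Figure D1:**
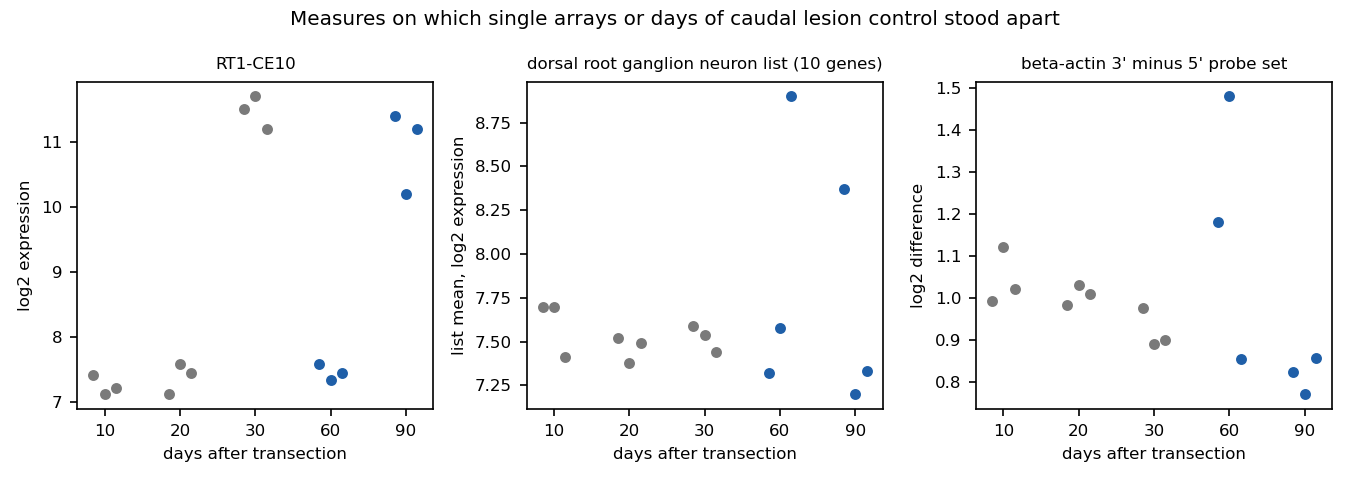
RT1-CE10 (log2 expression), the mean of 10 dorsal root ganglion neuron genes (log2 expression) and the difference between the 3' and 5' beta-actin probe sets (log2) in each of the 15 arrays by day (grey, intermediate; blue, late). RT1-CE10 is above 10 on days 30 and 90 alone, 1 array each of days 60 and 90 has a ganglion list mean above 8, and the second array of day 60 has the highest actin difference (1.48).

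Of the 12040 genes tested, 2424 were called (20.1%), of which 1419 fell (11.8% of those tested) and 1005 rose (8.35%). Each list count of this comparison given below is to be read against these 2 shares. With the spread taken from the compared groups alone 1257 genes were called, and with the period as the group 712. The median difference was 0.31 in size among the 2424 genes called and -0.014 over all genes. At least 2-fold changes were few and almost all downward: 88 genes fell (0.731%) and 2 rose, namely the transcription factor gene Srebf1 and the melanin enzyme gene Tyrp1. The arrays of the periods did not overlap at all for 186 genes (1.54%), of which 102 were lower and 84 higher. Among the 1419 genes that fell, 1159 had an intermediate mean above uninjured cord, and 814 of these were still above it on the late days. Of the 88 that fell 2-fold, 85 had stood above uninjured cord and 79 still did. Among the 1005 that rose, 740 had stood below uninjured cord, and 517 of these had not reached it. Without the third array of day 60, 1428 genes were called, and without both ganglion-high arrays 1044 (478 higher and 566 lower). With all arrays kept and the ganglion list as a covariate, 2217 were called (942 higher and 1275 lower). Between the RT1-CE10-high days, which sets the 3 arrays of day 90 against the 3 of day 30, 444 of the 12040 were called (281 higher and 163 lower). Calls were thus few there over all genes, and the list counts are to be read against that. None was lower in the insulin-like growth factor, neutrophil, endothelium, TGF-beta, respiratory chain and ribosomal lists. Lower calls numbered 1 in the fibroblast, haem and iron and pericyte lists, 2 in the reactive astrocyte list and 3 in the axon growth list.

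**Figure D2:**
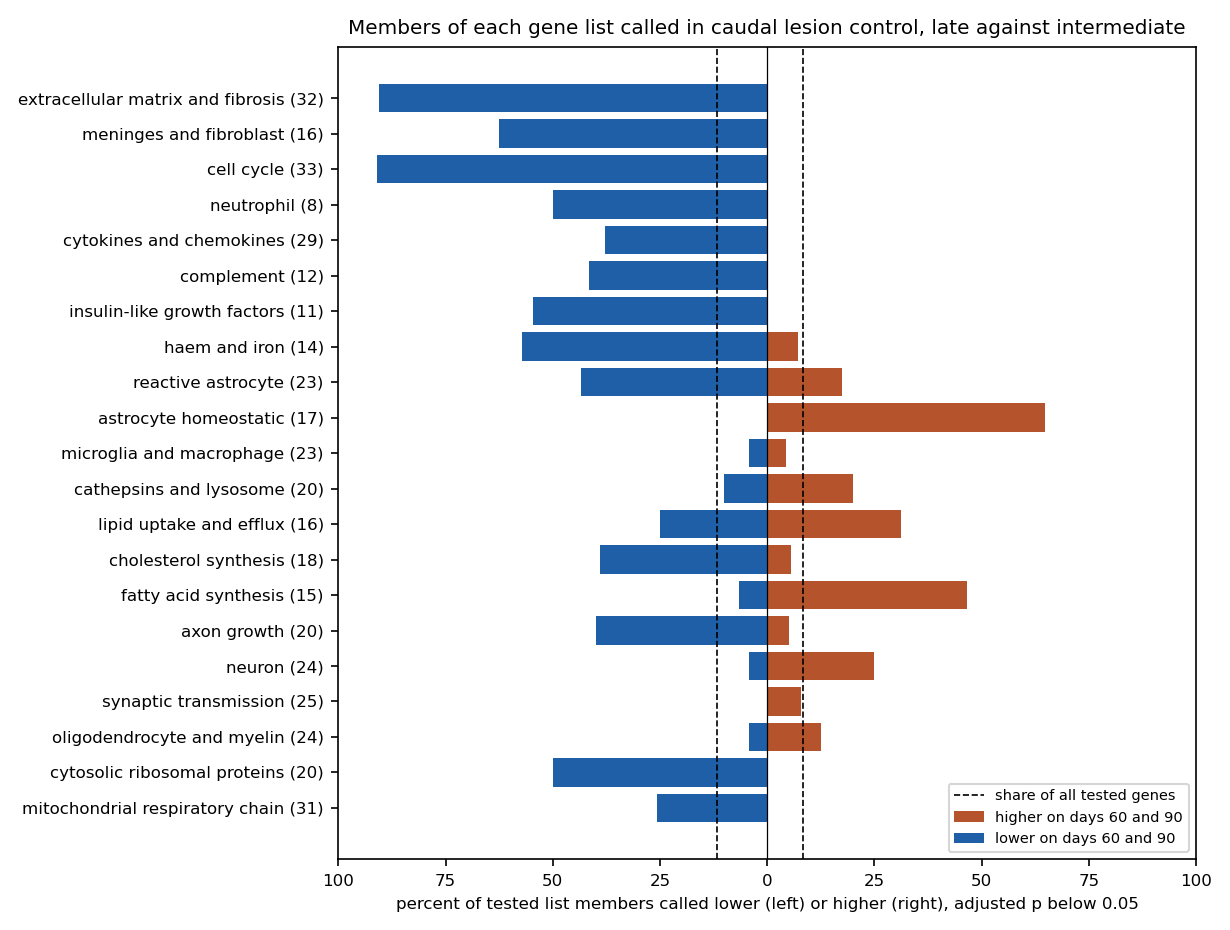
Percent of the tested members of each gene list (number tested in brackets) called lower (blue, left) or higher (red, right) on days 60 and 90 than on days 10 to 30; dashed lines mark the share of all tested genes called lower (11.8%) and higher (8.35%). Matrix and cell cycle lists stand furthest to the left, and homeostatic astrocyte and fatty acid lists furthest to the right.

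Genes of the scar matrix fell furthest. Of 32 tested genes of the extracellular matrix list, 29 fell and none rose (median -1.04). Postn, which encodes the matrix protein periostin, had the steepest fall of all genes tested: its values ran from 7.71 to 11.61 (median 9.78) in the intermediate arrays and from 6.07 to 8.13 (median 6.53) in the late arrays. All 6 arrays of days 10 and 20 lay above every late array, and day 30 overlapped the highest late array. The difference was -2.94 ± 0.29, adjusted p = 6.1e-10, and the late mean was still above the 5.79 of uninjured cord. Col1a1, a chain of type I collagen, ran from 9.30 to 12.07 (median 11.17) and then from 8.49 to 9.56 (median 8.83). Its difference was -1.89 ± 0.25, adjusted p = 2.7e-07, with the late range overlapping day 30 alone. The collagen gene Col3a1 (-1.39), the collagen-processing gene Cthrc1 (-2.08), the crosslinking enzyme gene Lox (-1.47) and the matrix gene Tnc, which encodes tenascin-C (-1.60), fell with it.

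Most of the matrix decline had happened by day 30. From day 10 to day 30, 1156 genes were called (9.60%; 5.41% higher and 4.19% lower), and 26 of the 32 matrix genes fell. Postn fell by 2.25, Col1a1 by 1.70, Tnc by 2.28 and Lox by 2.10 in this step. From day 30 to day 60, 636 genes were called (5.28%; 2.23% higher and 3.05% lower), among them none of the matrix list, and from day 60 to day 90, 99 were called (0.822%; 0.714% higher and 0.108% lower), again with none. Single arrays moved these counts, with 503 from day 10 to day 30 without the third array of day 10, 503 without the second of day 30 and 699 without the first of day 30, 218 to 454 from day 30 to day 60 over the 6 arrays of those days, and 25 to 318 over those of days 60 and 90. With the compared groups alone the steps gave 185, 187 and 2 genes. Within the RT1-CE10-low days, 28 of the 32 fell from days 10 and 20 to day 60, and between days 30 and 90, the high days, 2 fell. Lower calls over all 12040 genes numbered 767 in the low days and 163 between the high days. Without both ganglion-high arrays 29 fell. The mean level of the list over time is shown in the plot of list levels by array.

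Genes of fibroblasts and their regulators fell in part. Of 16 tested genes of meninges and fibroblasts 10 fell (median -0.47), among them the fibroblast gene Islr (-0.98), the retinoic acid carrier gene Crabp2 (-0.97) and the small proteoglycan gene Lum (-0.80). Other small proteoglycan genes of the list were not called: Ogn had a difference of -0.037 ± 0.16 (adjusted p = 0.9) and Fmod, which encodes the collagen-binding fibromodulin, one of 0.01 ± 0.14 (adjusted p = 0.97). Mgp, the matrix Gla protein gene that restrains calcification, ran from 12.26 to 13.57 (median 13.11) in the intermediate and from 11.12 to 11.96 (median 11.81) in the late arrays. The ranges did not overlap, and the difference was -1.31 ± 0.17, adjusted p = 2e-07. Of 11 tested genes of the insulin-like growth factor list 6 fell (median -0.49). Among them 4 encode proteins that bind the growth factors or tune them: Igfbp3 (-1.44), Igfbp6 (-0.78), Igfbp5 (-0.77) and Igfbp7 (-0.54). The growth factor gene Igf2 fell by 0.73 on the probe set used, while its other probe sets were near 0 (-0.021 to 0.026). Igf1, made by phagocytes, had a difference of -0.21 (adjusted p = 0.39). Without the third array of day 90, Igfbp5 missed the threshold (-0.58, adjusted p = 0.080). Timp1, an inhibitor of matrix proteases, fell from a median of 11.81 to 10.71 with no overlap (-1.08 ± 0.15, adjusted p = 1.2e-06).

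**Figure D3:**
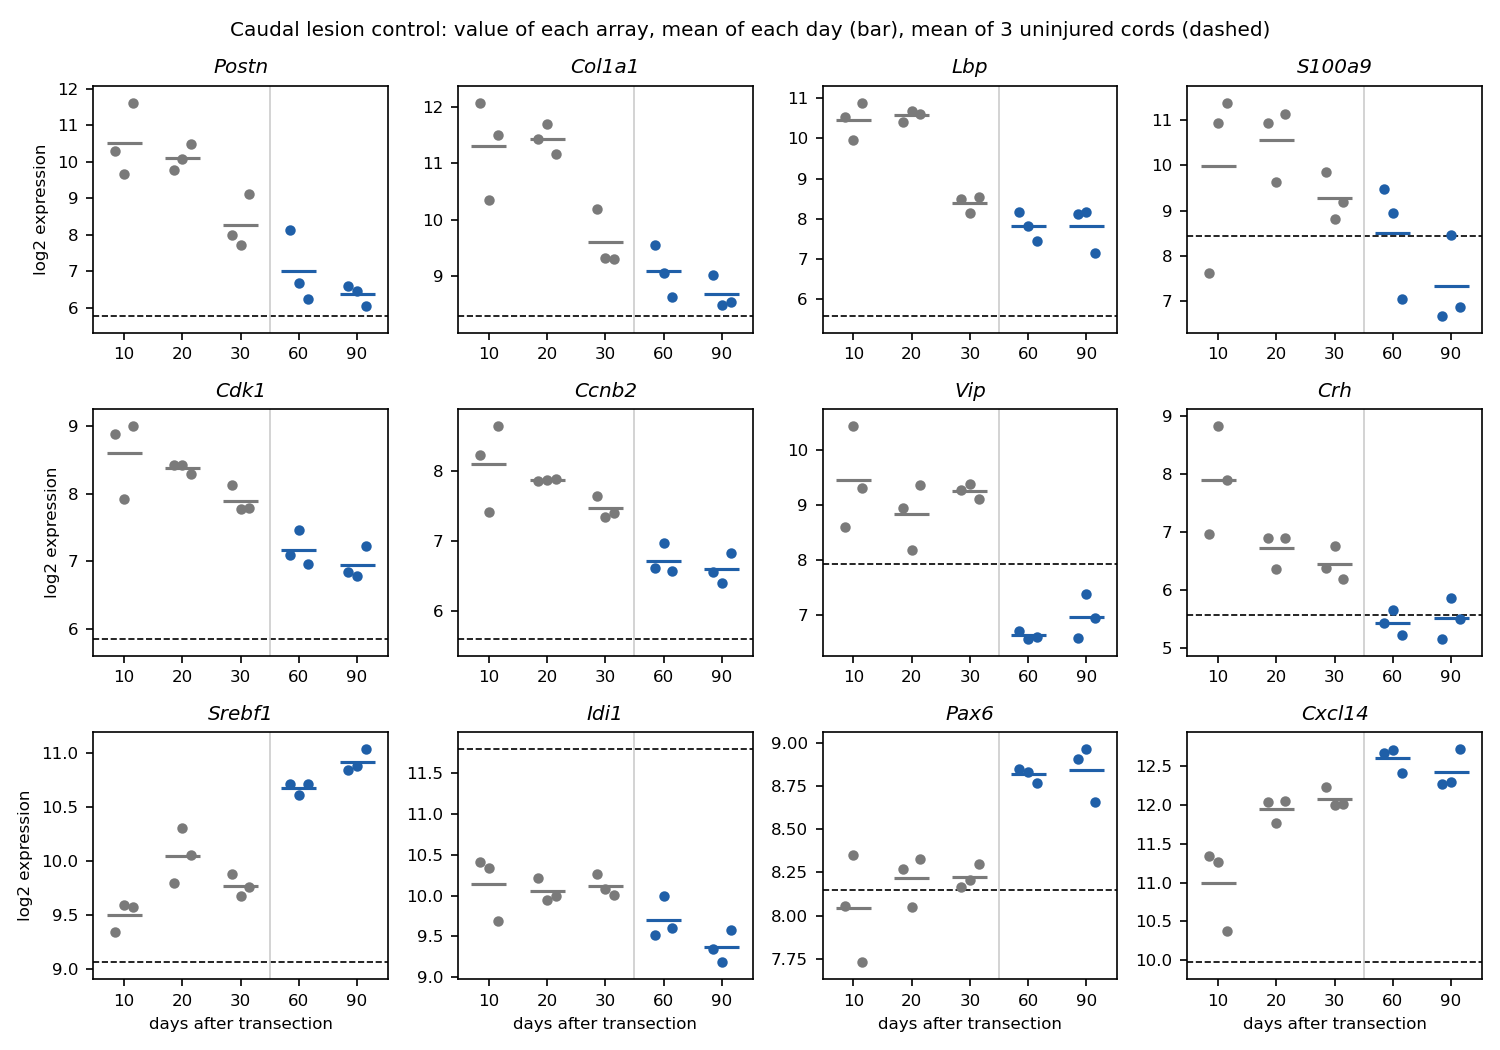
Value (log2 expression) of 12 genes in each caudal LC array by day after transection (points: grey, intermediate days; blue, late days), with the mean of each day (bar) and the mean of the 3 uninjured cords (dashed). Postn, Col1a1 and Lbp drop before day 30, Vip drops between days 30 and 60, and Srebf1 and Pax6 rise between days 30 and 60.

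Genes of cell division fell almost as a whole. Of 33 tested genes of the cell cycle list 30 fell and none rose (median -0.49). Cdk1, the kinase that drives entry into mitosis, ran from 7.77 to 9.0 (median 8.29) in the intermediate and from 6.79 to 7.46 (median 7.02) in the late arrays. Ccnb2, which encodes one of its cyclins, ran from 7.35 to 8.64 (median 7.86) and then from 6.40 to 6.97 (median 6.59). Neither gene's ranges overlapped, and every late array was still above the uninjured means of 5.86 and 5.61. The difference was -1.23 ± 0.14 for Cdk1 (adjusted p = 2.4e-08) and -1.15 ± 0.13 for Ccnb2 (adjusted p = 2.3e-08). The phosphatase gene Cdkn3 (-1.59), the proliferation marker Mki67 (-1.11), the ubiquitin enzyme gene Ube2c (-1.01) and the topoisomerase gene Top2a (-0.87) fell with them. Of the 3 genes that were not called, the mitotic kinase gene Aurkb had a difference of -0.49 ± 0.26 (adjusted p = 0.17) and the G1 cyclin gene Ccnd1 one of -0.11 ± 0.091 (adjusted p = 0.39).

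The decline of division genes was spread over the days. From day 10 to day 30, 11 of the 33 fell, and from day 30 to day 60, 5 fell. Cdk1 fell by 0.70 in the first step and by 0.73 in the second, and Ccnb2 by 0.63 and 0.75. From day 60 to day 90 none was called. In the RT1-CE10-low days 28 of the 33 fell, between the high days 3 did, and without both ganglion-high arrays 24 did. Lower calls over all 12040 genes numbered 767, 163 and 566 in these settings. Cdk1, Ccnb2 and Cdkn3 passed the threshold in every setting tried.

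The promoters of Cdk1 and Ccnb2 are shown because their genes fell together without overlap of the arrays. The windows hold the 250 bases before the RefSeq start (GRCr8) on the gene's strand, at chr20:19265043-19265292 (plus strand) for Cdk1 and at chr8:79981659-79981908 (minus strand) for Ccnb2. Capitals mark the CCAAT box (CCAAT, or ATTGG on the other strand) and the cell cycle homology region (TTTGAA, or TTCAAA on the other strand), motifs known from promoters of mitotic genes.
Cdk1: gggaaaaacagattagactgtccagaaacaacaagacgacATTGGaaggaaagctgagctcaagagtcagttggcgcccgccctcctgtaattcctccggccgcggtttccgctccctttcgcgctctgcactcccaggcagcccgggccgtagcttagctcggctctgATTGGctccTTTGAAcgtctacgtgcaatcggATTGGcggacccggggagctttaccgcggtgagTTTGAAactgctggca
Ccnb2: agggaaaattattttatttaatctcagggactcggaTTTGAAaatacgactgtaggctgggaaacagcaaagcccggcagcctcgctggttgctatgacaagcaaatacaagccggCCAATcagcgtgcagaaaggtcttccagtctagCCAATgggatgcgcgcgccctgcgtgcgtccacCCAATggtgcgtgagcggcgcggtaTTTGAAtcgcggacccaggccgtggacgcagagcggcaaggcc
Each window held 3 CCAAT boxes and 2 TTTGAA matches. In Cdk1 the match nearest the start lay 16 to 11 bases before it, and in Ccnb2 43 to 38 bases before it. Of the 30 cell cycle genes that fell, 25 had a window, and 18 of these held a CCAAT box (72%), against 36.1% of all 27457 genes with a window. Both motifs were found in 8 of the 25 (32%), against 6.81% of all. A match is a run of letters and describes neither binding nor cause.

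**Figure D4:**
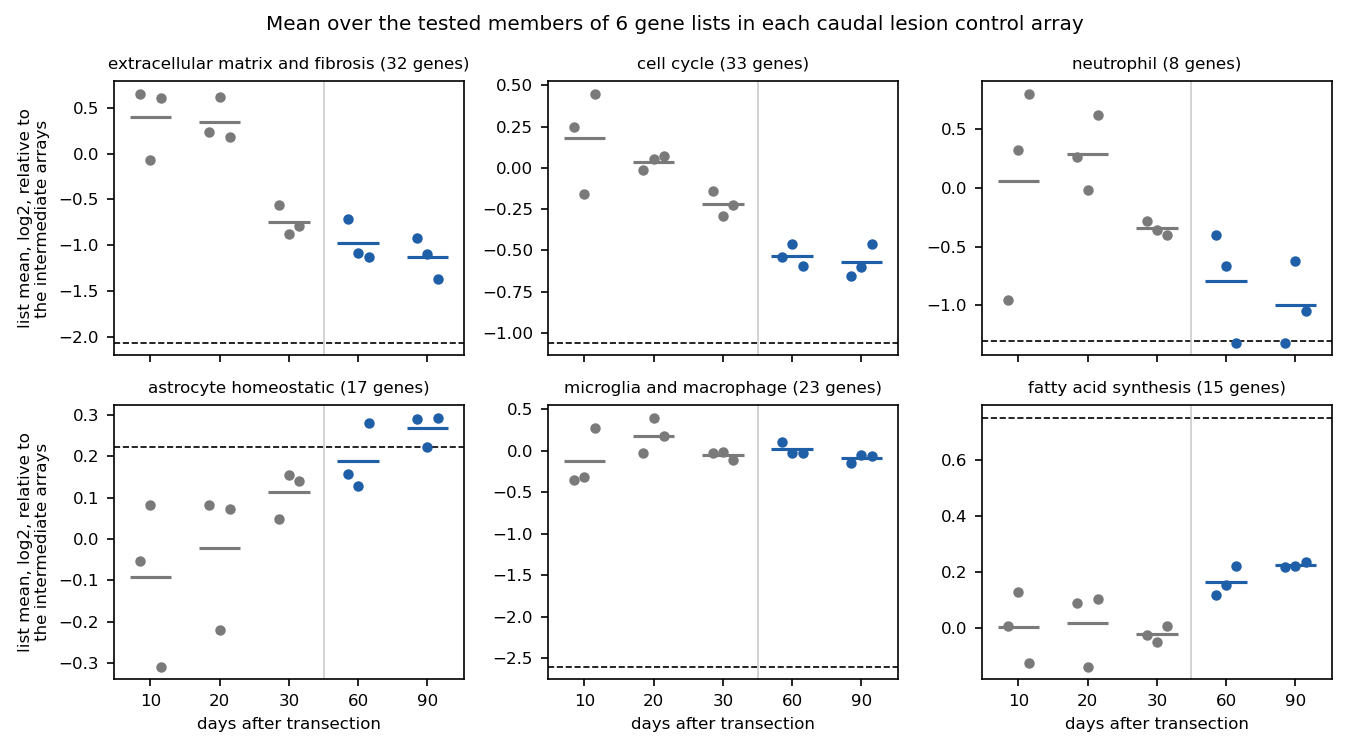
Mean over the tested members of 6 gene lists in each caudal LC array, log2, relative to the mean of the 9 intermediate arrays (points: grey, intermediate; blue, late; bar, mean of the day; dashed, uninjured cord). Matrix genes drop between days 20 and 30, cell cycle genes decline over days 10 to 60, astrocyte homeostatic genes rise, fatty acid genes are higher on days 60 and 90, and microglial and macrophage genes stay level, far above uninjured cord.

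Several genes of innate defence were among the steepest falls. Lbp, which encodes the lipopolysaccharide-binding protein of the acute phase, ran from 8.15 to 10.88 (median 10.42) in the intermediate and from 7.15 to 8.18 (median 7.97) in the late arrays. A pair of late arrays lay just above the lowest array of day 30, with no other overlap, and the difference was -2.0 ± 0.24, adjusted p = 3.7e-08. From day 10 to day 30 Lbp fell by 2.07. Slpi, a leukocyte protease inhibitor gene, fell without overlap (-1.72 ± 0.23, adjusted p = 6.8e-07), as did the complement receptor gene C5ar1 (-1.16). Plac8, a gene of myeloid and other immune cells, ran from 10.36 to 11.25 (median 10.84) and then from 8.82 to 9.75 (median 9.50), a fall of 1.41 ± 0.16. It dropped between days 30 and 60 (-1.20, adjusted p = 0.0022). Lcn2, the siderophore-binding lipocalin of reactive glia and neutrophils, also dropped in that step (-1.69, adjusted p = 0.015) and by 1.29 between the periods, with an adjusted p of 0.054 without both ganglion-high arrays.

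Of 8 tested neutrophil genes 4 fell (median -0.74). S100a9, a calcium-binding protein gene abundant in neutrophils, ran from 7.63 to 11.38 (median 9.85) in the intermediate and from 6.68 to 9.48 (median 7.76) in the late arrays. The ranges overlapped widely, since the first array of day 10 was low, and the difference was -2.03 ± 0.47, adjusted p = 0.0018. Its partner S100a8 fell by 1.74 ± 0.48, with an adjusted p of 0.055 without the third array of day 60. The gelatinase gene Mmp9 fell by 1.07 to a level near that of uninjured cord (4.78), which is near the floor of the arrays. Without both ganglion-high arrays 1 neutrophil gene was called lower, while lower calls over all genes went from 1419 to 566. S100a9 was at -1.50 there (adjusted p = 0.058).

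Chemokine and complement genes fell in part. Of 29 tested cytokine and chemokine genes 11 fell and none rose (median -0.34), among them the monocyte-attracting Ccl6 (-1.45) and Ccl7 (-1.32) and the neutrophil-attracting Cxcl1 (-1.20). Ccl2 fell by 0.85 ± 0.27 (adjusted p = 0.019), and missed the threshold when any of 4 arrays was left out (differences from -0.80 to -0.73, adjusted p up to 0.085). Those were the third of day 10, the third of day 60, and the first and the third of day 90. Of 12 tested complement genes 5 fell (median -0.36), with C1qc, part of the initiating complex, at -0.63 and the terminal component C6 at -1.42. Its partner C1qa had a difference of -0.21 ± 0.088 (adjusted p = 0.076). Without both ganglion-high arrays 4 cytokine and 2 complement genes were called lower, while lower calls over all genes went from 1419 to 566. Neither Cxcl1 (adjusted p = 0.11) nor C1qc (adjusted p = 0.064) was called there. Between days 30 and 90 no gene of either list was called, with Ccl6 at -0.53 (adjusted p = 0.41), Ccl7 at -0.69 (0.24), C6 at -0.46 (0.47), and Cxcl1 and Ccl2 near 0 (-0.00026 and -0.0020). Without both arrays highest in Cd68 and Mmp12, Cxcl1 was at -0.72 (adjusted p = 0.0997).

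Genes of resident and recruited phagocytes as a group did not follow. Of 23 tested microglia and macrophage genes 1 rose and 1 fell (median 0.01), against 11.8% lower and 8.35% higher over all genes. Cd68, a lysosomal marker of phagocytes, ran from 10.64 to 13 in the intermediate and from 11.50 to 11.78 in the late arrays, far above the 6.54 of uninjured cord. Its difference was 0.012 ± 0.19 (adjusted p = 0.97). Aif1, which encodes the microglial protein Iba1, fell by 0.45 ± 0.12 (adjusted p = 0.0072), or by 0.35 without the third array of day 60 (adjusted p = 0.062). The lysozyme gene Lyz2 had a difference of 0.038 ± 0.082 (adjusted p = 0.79) and stayed near 13.99, against 11.26 in uninjured cord.

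Genes of iron and lipid handling by phagocytes split. Of 14 tested haem and iron genes 8 fell and 1 rose (median -0.29). Cd163, the receptor for haemoglobin bound to haptoglobin, ran from 5.62 to 7.92 (median 6.32) in the intermediate and from 4.67 to 5.61 (median 5.32) in the late arrays. The ranges touched without overlapping, and the difference was -1.29 ± 0.21, adjusted p = 1.5e-05. The late values of Cd163 were as low as those of Syt1, near the floor. The step from day 30 to day 60 was -1.05 (adjusted p = 0.047). The iron exporter gene Slc40a1 (-0.86), the haem oxygenase gene Hmox1 (-0.69) and the metalloreductase gene Steap4 (-1.05) fell too. Of 16 tested genes of lipid uptake and efflux 5 rose and 4 fell, against 8.35% and 11.8% over all genes. The cholesterol exporter genes Abca1 (0.49) and Abcg1 (0.33) rose, while the fatty acid carrier gene Fabp4 (-1.74) and the scavenger receptor gene Cd36 (-1.41) fell, as did the macrophage elastase gene Mmp12 of the matrix list (-1.73). The third array of day 10 and the second of day 20, which were highest in Cd68 and Mmp12, also had the highest values of Fabp4 (10.24 and 11.59), Cd36 (10.16 and 11.04) and Hmox1 (12.70 and 11.61). Without both, Fabp4 fell by 1.07, Cd36 by 0.89, and Hmox1 had a difference of -0.34 (adjusted p = 0.096). Between the RT1-CE10-high days the difference of Cd36 was 0.32. Abca1 (0.42, adjusted p = 0.061) and Hmox1 (-0.67, adjusted p = 0.061) missed the threshold without both ganglion-high arrays. The erythrocyte list also had 2 of 6 genes lower (median -0.41).

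Among the genes that rose, Srebf1 had the lowest adjusted p. It encodes the transcription factor SREBP-1, which activates fatty acid synthesis genes. Its values ran from 9.34 to 10.30 (median 9.76) in the intermediate and from 10.61 to 11.03 (median 10.77) in the late arrays, with no overlap and a gap between days 30 and 60. The rise was 1.02 ± 0.083, adjusted p = 1.7e-12, above an uninjured level of 9.06. The step from day 30 to day 60 was 0.91 (adjusted p = 3.5e-06). It was called in every setting tried, and the rise was 0.90 from days 10 and 20 to day 60 and 1.15 from day 30 to day 90.

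Fatty acid and cholesterol genes went different ways. Of 15 tested fatty acid synthesis genes 7 rose and 1 fell (median 0.17), with the desaturase genes Fads1 (0.43 ± 0.082, adjusted p = 0.00019) and Scd2 (0.28 ± 0.065, adjusted p = 0.0019), the NADPH-supplying malic enzyme gene Me1 (0.35) and the acyl-CoA synthetase gene Acsl6 (0.47) among the 7. Scd, another desaturase gene, fell by 0.26 ± 0.085 (adjusted p = 0.025) and lay near 7.65 against 10.61 in uninjured cord. Scd missed the threshold without the first array of day 30 (-0.24, adjusted p = 0.052) or the third of day 90 (-0.23, adjusted p = 0.062), and was 0.05 higher on day 90 than on day 30. Acly, which supplies the acetyl-CoA, had a difference of 0.031 ± 0.062 (adjusted p = 0.76). Relative to the intermediate arrays, the mean of the fatty acid list was 0.117 to 0.236 in the late arrays and 0.752 in uninjured cord. Of 18 tested cholesterol synthesis genes 1 rose and 7 fell (median -0.20). Idi1, which makes the isoprenoid unit, ran from 9.69 to 10.41 (median 10.08) in the intermediate and from 9.19 to 10 (median 9.55) in the late arrays. All 15 arrays lay below the 11.79 of uninjured cord, and the difference was -0.57 ± 0.11, adjusted p = 0.00015.

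The other cholesterol genes that fell act along the same route: the squalene synthase gene Fdft1 (-0.35), the sterol isomerase gene Ebp (-0.46) and the sterol reductase gene Tm7sf2 (-0.29) among them. Ebp fell without overlap of the arrays. Dhcr7, of the last step, was the member that rose (0.33 ± 0.079, adjusted p = 0.0024), after a fall from day 10 to day 30 (-0.43) and a rise from day 30 to day 60 (0.84). The sterol demethylase gene Cyp51 had a difference of -0.18 ± 0.12 (adjusted p = 0.28). Its other probe set was lower by the same test (-0.32, adjusted p = 0.0016 over all probe sets). Myelin genes, whose products hold much of the cord's cholesterol, moved little: of 24 tested 3 rose and 1 fell (median 0.01). Over all genes 8.35% rose and 11.8% fell. Mbp had a difference of 0.065 ± 0.037 (adjusted p = 0.21), the cytoskeletal gene Ermn rose by 0.37 (adjusted p = 0.056 without both arrays highest in Cd68 and Mmp12), and the sulfatide enzyme gene Gal3st1 fell by 0.26.

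Homeostatic astrocyte genes, those of the resting cell, rose. Of 17 tested genes of the homeostatic astrocyte list 11 rose and none fell (median 0.26). The growth factor receptor gene Fgfr3 (0.42 ± 0.082, adjusted p = 0.00023), the bicarbonate transporter gene Slc4a4 (0.42) and the acyl-CoA synthetase gene Acsbg1 (0.39) rose. The abundant members Glul, which makes glutamine, and Gjb6, a gap junction gene, had differences of 0.10 ± 0.054 (adjusted p = 0.16) and -0.064 ± 0.11 (adjusted p = 0.73). Of 23 genes of the reactive astrocyte list 10 fell and 4 rose (median -0.31), and several that fell (Timp1, Lcn2, Serpina3n at -0.97) are also made by other cells. Gfap itself, the intermediate filament gene that marks reactive astrocytes, rose by 0.15 ± 0.042 (adjusted p = 0.011). The filament gene Vim had a difference of -0.12 ± 0.069 (adjusted p = 0.22) and stayed near 13.67, against 11.33 in uninjured cord. Of the 17 homeostatic genes, 5 were called without both ganglion-high arrays (median 0.21) and 5 without both arrays highest in Cd68 and Mmp12 (0.19). None was called between days 30 and 90 (0.16) or against day 30 alone (0.091). Higher calls over all genes numbered 478, 651, 281 and 414 in these settings, against 1005 in the full comparison. The differences without the ganglion-high arrays were 0.43 for Fgfr3, 0.38 for Slc4a4 and 0.37 for Acsbg1, close to those with them. Gfap missed the threshold without either pair (0.14 and 0.10) and between days 30 and 90 (0.035).

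The transcription factor genes Pax6 and Rfx4, both active in astrocytes and in the embryonic cord, rose without overlap. Pax6 ran from 7.73 to 8.35 (median 8.21) in the intermediate and from 8.66 to 8.96 (median 8.84) in the late arrays. Every late array was above the uninjured mean of 8.15, and the rise was 0.67 ± 0.077, adjusted p = 2.6e-08. Rfx4 rose by 0.68 ± 0.11, adjusted p = 1.2e-05. The step from day 30 to day 60 was 0.59 for Pax6 (adjusted p = 0.0015) and 0.60 for Rfx4 (adjusted p = 0.027). Cxcl14, which encodes a chemokine-like protein, went from 10.38 to 12.23 (median 12) and then from 12.27 to 12.72 (median 12.55), far above the 9.97 of uninjured cord. It rose by 0.84 ± 0.13, adjusted p = 1.2e-05, with a step of 1.08 from day 10 to day 30. Dao, the D-amino acid oxidase gene of astrocytes, rose by 0.95 ± 0.18, adjusted p = 0.00015. The step from day 10 to day 30 was 1.23, and against day 30 alone neither Dao (0.23, adjusted p = 0.57) nor Cxcl14 (0.43, adjusted p = 0.12) was called.

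Among neuronal genes Vip fell furthest. It encodes vasoactive intestinal peptide, a transmitter induced in sensory neurons by axon injury, and ran from 8.18 to 10.44 (median 9.28) in the intermediate and from 6.57 to 7.38 (median 6.66) in the late arrays. Every intermediate array lay above the uninjured mean of 7.93 and every late array below it. The difference was -2.38 ± 0.20, adjusted p = 1.7e-12. It came in a single step: day 30 differed from day 10 by -0.20 (adjusted p = 0.73) and day 60 from day 30 by -2.63 (adjusted p = 3.7e-08). Within the RT1-CE10-low days the difference was -2.52, and between the high days -2.29. Vip was called in every setting tried, also without both ganglion-high arrays (-2.28).

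The Vip promoter is shown because its gene dropped in 1 step. The window, at chr1:44470230-44470479 (plus strand) (GRCr8, RefSeq start), holds the 250 bases before the start on the gene's strand, and capitals mark a cyclic AMP response half-site (TGACGT, or ACGTCA on the other strand), a motif known from genes induced by neuronal activity.
Vip: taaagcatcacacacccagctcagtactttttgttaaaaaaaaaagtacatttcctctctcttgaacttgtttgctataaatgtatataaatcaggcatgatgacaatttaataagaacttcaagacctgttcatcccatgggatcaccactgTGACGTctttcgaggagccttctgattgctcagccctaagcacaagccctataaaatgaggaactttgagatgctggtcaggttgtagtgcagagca
The match lay 97 to 92 bases before the start, and 7.68% of all genes with a window held one. The letters say nothing about whether a factor was bound.

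Other neuropeptide genes were also called lower. Crh, which encodes corticotropin-releasing hormone, ran from 6.19 to 8.82 (median 6.89) in the intermediate and from 5.16 to 5.87 (median 5.46) in the late arrays, around the uninjured mean of 5.56. There was no overlap, and the difference was -1.54 ± 0.23, adjusted p = 3.5e-06. The late and uninjured values of Crh were near the floor, so whether they are alike cannot be read from them. Day 10 was the high day, with -1.45 from there to day 30. The galanin gene Gal (-0.87 ± 0.18, adjusted p = 0.0005) and the neuropeptide Y gene Npy (-0.94 ± 0.24, adjusted p = 0.0043) fell to late medians of 9.05 and 10.26, below the 10.31 and 11.01 of uninjured cord. Npy missed the threshold without both ganglion-high arrays (-0.69, adjusted p = 0.094). Of 20 tested axon growth genes 8 fell and 1 rose (median -0.12), against 11.8% and 8.35% over all genes. Sprr1a, induced in axotomised neurons, fell without overlap (-0.99 ± 0.12, adjusted p = 4.1e-08). Gap43, the growth cone gene, fell by 0.34 ± 0.068 (adjusted p = 0.00032), while its other probe set was at -0.059 (adjusted p = 0.37 over all probe sets).

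Neurotrophin genes moved little. Of 16 tested neurotrophic factors and receptors 3 rose and 1 fell, against 8.35% higher and 11.8% lower over all genes. Bdnf, a neurotrophin gene, fell by 0.47 ± 0.12 (adjusted p = 0.0039), to a late median of 5.96 against 6.83 in uninjured cord. The step from day 10 to day 30 was -0.80, and the late days were not called lower than day 30 alone (-0.12, adjusted p = 0.67) or day 90 lower than day 30 (-0.078, adjusted p = 0.84). Its receptor gene Ntrk2, which astrocytes also express, rose by 0.30 ± 0.078 (adjusted p = 0.0055, or 0.064 without both arrays highest in Cd68 and Mmp12). Ntrk3, the receptor gene for neurotrophin-3, had a difference of 0.23 ± 0.15 (adjusted p = 0.3) and the pan-neurotrophin receptor gene Ngfr one of -0.28 ± 0.20 (adjusted p = 0.34). Ntf3, the neurotrophin-3 gene, was below the filter on low values and was not tested.

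Some neuronal genes were higher on the late days and still below the uninjured level. Of 24 tested genes of the neuron list 6 rose and 1 fell (median 0.10), among them the neurofilament genes Nefl (0.35 ± 0.074, adjusted p = 0.00066) and Nefh (0.30 ± 0.074, adjusted p = 0.0038) and the dendritic gene Map2 (0.31 ± 0.072, adjusted p = 0.0018). The late medians of 13.55, 13.19 and 12.46 stayed below uninjured cord at 13.99, 13.90 and 12.86. The other probe sets of Nefl (0.17) and Map2 (0.27) were not called. The list's median step was 0.31 from day 10 to day 30, -0.050 from there to day 60 and -0.015 to day 90. Against day 30 alone none of Nefl (0.20), Nefh (0.13) and Map2 (0.19) was called, nor between days 30 and 90 (0.26, 0.21 and 0.17). Gphn, the anchor of inhibitory receptors, rose without overlap (0.38 ± 0.069, adjusted p = 8.7e-05), and the potassium channel genes Kcnd3 (0.38) and Kcna2 (0.42) rose. No other probe set of Kcnd3 (0.28 and -0.086) or Kcna2 (0.027) was called. Slc6a15, a neuronal amino acid transporter gene, rose by 0.78 ± 0.11, adjusted p = 1.2e-06, and passed in every setting tried. Snap25 rose by 0.19 ± 0.07 (adjusted p = 0.044), a call lost when any of 9 single arrays was left out (differences down to 0.15, adjusted p up to 0.15). Those were the first and the third of day 10, the second of day 20, the first and second of day 30, the second and the third of day 60 and the first and second of day 90. The ganglion list had a median difference of 0.25, with none of 10 genes called. Its mean was high in the third array of day 60 and the first of day 90 alone. The median of that mean was 7.52 in the intermediate and 7.455 in the late arrays. Kcna2 missed the threshold without both ganglion-high arrays (0.39, adjusted p = 0.063).

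Among the highest rises, several stood apart in single arrays. Tyrp1, named for its melanin pathway enzyme, had the largest difference (1.48 ± 0.50, adjusted p = 0.03), with 8.93 in the third array of day 60 and 8.29 in the first of day 90, the ganglion-high arrays. Its other late values were 5.88, 6.03, 5.97 and 6.0, against 5.04 to 5.94 in the intermediate arrays. Left out singly, those arrays gave 0.99 (adjusted p = 0.20) and 1.10 (adjusted p = 0.15), and without the first array of day 30 it was 1.44 (adjusted p = 0.053). Rgs4, a regulator of G protein signals, rose by 0.98 ± 0.23, adjusted p = 0.0021, and was 0.58 without both (adjusted p = 0.12). Ccdc141, a coiled-coil gene known from neuron migration, ran from 5.67 to 6.38 and then from 6.62 to 7.22, with no overlap (0.88 ± 0.11, adjusted p = 2.1e-07), and rose between days 30 and 60 (0.84). The clock-related gene Npas2 (0.53 ± 0.10, adjusted p = 8.8e-05) did so as well (0.69). Both were called in every setting tried.

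Lower calls of mitochondrial and ribosomal genes were also lost without the ganglion-high arrays, though not all sets of arrays were alike. Of 31 tested respiratory chain genes 8 fell (median -0.18), and of 20 cytosolic ribosomal protein genes 10 fell (median -0.21). Without both ganglion-high arrays none of either list was called, while lower calls over all genes went from 1419 to 566. In NT3 cord 16 ribosomal genes were lower and 1 higher, and 14 respiratory chain genes lower and 4 higher. Over all genes 19.1% were lower and 11.9% higher there. Rostral LC and ET cord each had 1 ribosomal and 0 respiratory chain genes lower, with 8.44% and 6.61% of all genes lower. What part the ganglion-high arrays had in the falls was not tested. Uqcrq, a subunit of complex III, fell by 0.52 ± 0.17 (adjusted p = 0.023) and by 0.37 without the third array of day 60 (adjusted p = 0.15), 0.46 without the first of day 90 (adjusted p = 0.075) and 0.45 without the first of day 30 (adjusted p = 0.064). Rpl27, of the large ribosomal subunit, fell by 0.39 ± 0.10, or 0.29 without the third array of day 60 (adjusted p = 0.057). Atp5f1b, of the ATP synthase, had a difference of 0.047 ± 0.044 (adjusted p = 0.47). With all arrays kept and the ganglion list as a covariate, Uqcrq and Rpl27 stayed called. So did Lcn2, S100a9, Cxcl1, C1qc, Hmox1, Abca1, Npy, Kcna2, Tyrp1 and Rgs4, whereas RT1-CE10 lost its call.

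Some vessel genes fell. Of 23 tested genes of endothelium and angiogenesis 5 fell and 1 rose, with Esm1, a gene of sprouting tip cells (-1.07 ± 0.20, adjusted p = 0.0001), and the TGF-beta coreceptor gene Eng (-0.46 ± 0.10, adjusted p = 0.0014) lower. Esm1 fell before day 30 (-1.59 from day 10). Cldn5, of the tight junctions, had a difference of 0.057 ± 0.081 (adjusted p = 0.66). Of 14 pericyte and smooth muscle genes 3 fell and 1 rose, and Tagln, an actin-binding gene of contractile cells, fell without overlap (-0.79 ± 0.13, adjusted p = 2.7e-05). Of 23 TGF-beta and BMP genes 5 fell and 1 rose, with the ligand gene Bmp7 at -0.77. The shares over all genes were 11.8% lower and 8.35% higher.

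The same periods were compared in the 3 other sets of arrays. In rostral LC cord 1773 genes were called (14.7%; 757 higher, 6.29%, and 1016 lower, 8.44%, or 545 and 1540 after scaling to the 75th percentile). In ET cord 1174 were called (9.75%; 378 higher, 3.14%, and 796 lower, 6.61%, or 513 and 700 after quantile normalisation and 494 and 658 after scaling), or 702 without the third array of day 90. In NT3 cord 3733 were called (31.0%; 1430 higher, 11.9%, and 2303 lower, 19.1%, or 1076 and 2981 after scaling). Of the 2424 genes called in caudal LC cord, 1008 were called in the same direction in rostral LC cord (41.6%, and 56.9% of that list), 587 in ET cord (24.2% and 50%) and 1761 in NT3 cord (72.6% and 47.2%). Calls in the opposite direction numbered 0, 4 and 1. Of the 90 genes that changed at least 2-fold, 56, 55 and 81 were called the same way. In all 4 sets 107 genes rose and 262 fell.

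Of the 33 cell cycle genes, 31, 26 and 30 were lower in rostral LC, ET and NT3 cord, against 30 in caudal LC cord. Of the 32 matrix genes, 17, 23 and 24 were lower, against 29. Srebf1 rose by 1.17 ± 0.082 in rostral LC cord, by 0.78 ± 0.083 in ET cord and by 0.99 ± 0.083 in NT3 cord, and Cdk1 had differences of -1.44, -1.12 and -1.35. The homeostatic astrocyte list had 1 gene higher in rostral LC cord, 1 higher and 1 lower in ET cord, and 12 higher in NT3 cord. Fibroblast genes lower numbered 1, 0 and 6 of 16. Over all genes 8.44%, 6.61% and 19.1% were lower and 6.29%, 3.14% and 11.9% higher in rostral LC, ET and NT3 cord. Whether these list counts differ between sets was not tested. Gene by gene, the difference between caudal LC and ET cord reached the threshold for none of the 12040 genes (limma; 1554 at an unadjusted p below 0.05). It did for 3 to 5 genes after quantile normalisation, after scaling and in a fit of all arrays, for up to 23 without any of 11 single arrays (23 without the first LC array of day 20), and for 920 with array weights, whose estimation stopped before convergence.

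**Figure D5:**
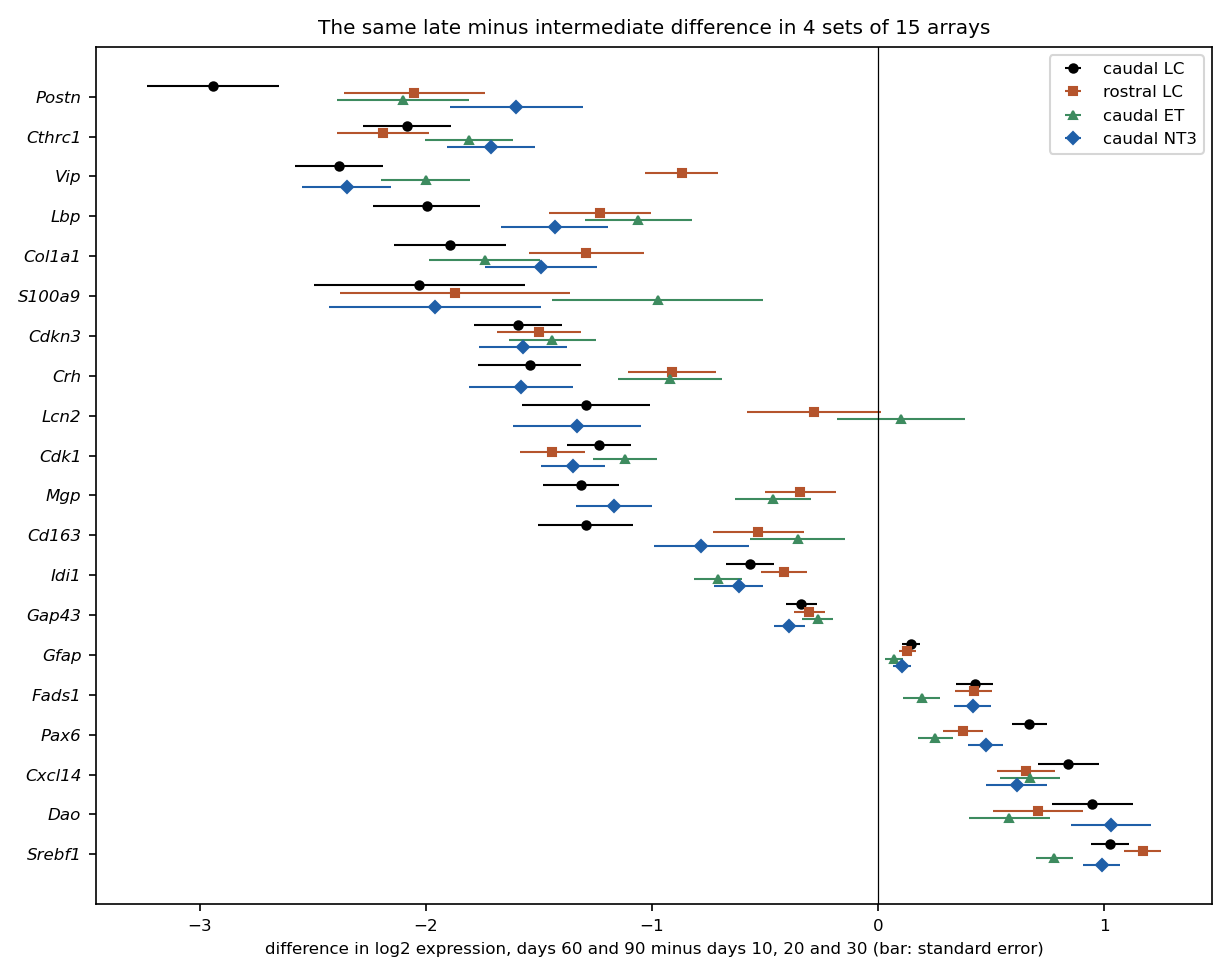
Late minus intermediate difference (log2, point) with its standard error (bar) of 20 genes in caudal LC (black circles), rostral LC (red squares), caudal ET (green triangles) and caudal NT3 cord (blue diamonds). Vip lies at -0.87 in rostral LC cord against -2.38 in caudal LC cord, while Cdk1, Cdkn3 and Srebf1 lie close together in all 4.

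Against rostral LC cord the difference itself was called for 2 genes (0.0166%, with 768 at an unadjusted p below 0.05). The fit took caudal and rostral arrays as independent, and the labels do not say whether 1 rat gave both. The difference of Vip was -0.87 ± 0.16 rostrally and -2.38 caudally, and the caudal minus rostral difference was -1.52 ± 0.23 (adjusted p = 2.5e-05). It was called whichever of the 30 arrays was left out (differences from -1.66 to -1.35), but not in a fit of the compared groups alone (adjusted p = 0.089). In ET and NT3 cord, both caudal, Vip fell by 2.0 and 2.35. Aoc1, an amine oxidase gene, had a difference of -0.046 ± 0.21 in caudal LC cord, where the second array of day 20 alone was high at 8.02, and rose by 1.25 ± 0.19 rostrally. The difference of -1.30 ± 0.26 (adjusted p = 0.023) missed the threshold without any of 11 of the 30 arrays (differences from -1.46 to -1.0, adjusted p up to 0.10 over all 30), among them the third of day 10, the first of day 30, the first and the third of day 60 and the second of day 90 of caudal LC cord.

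Against NT3 cord 2 genes were called (0.0166%; 456 at an unadjusted p below 0.05), both of the histocompatibility complex. RT1-CE10 differed by 1.69 ± 0.24 (adjusted p = 5.6e-05) and RT1-CE12 by 0.74 ± 0.14 (adjusted p = 0.015). In caudal LC cord itself RT1-CE10 had a difference of 0.49 ± 0.17 (adjusted p = 0.033), with days 30 and 90 alone high, and RT1-CE12 one of 0.0044 ± 0.10. The RT1-CE10 call was lost without any of 7 single arrays (differences from 0.36 to 0.68, adjusted p up to 0.16): the third of day 10, the first of day 20, the third of day 30, the first and the third of day 60, and the first and the third of day 90. RT1-CE12 missed the threshold without the first array of day 60, the first or the third of day 90 of LC cord or the second of day 90 of NT3 cord (adjusted p up to 0.11, differences from 0.65 to 0.87). The day classes reach beyond these genes: the amino acid transporter subunit gene Slc3a1 rose by 3.21 from day 10 to day 30 and fell by 2.96 to day 60, and Siglec5, an immune receptor gene, did the reverse (-3.20 and 2.43).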

How the data were processed

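Total RNA of spinal cord tissue was hybridised to Affymetrix rat arrays, 1 colour and 1 sample an array. Per the submitters' processing notes the images were read with GCOS and summarised by RMA with Affymetrix Expression Console (versions and the set of arrays normalised together are not given in the sources used here). Expression is given on a log2 scale in the authors' deposited table, with 31099 probe sets, and was used unchanged. Arrays show no sequencing depth, and array medians lay between 7.10 and 7.25.

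Of the probe sets 57 were controls, 20832 had 1 gene symbol (20764 matched to RefSeq GRCr8, none renamed), 436 several and 9831 none. A gene was read from its probe set of highest mean (14217 genes), and 12040 genes passed the filter (above the array's 40th percentile in at least 3 arrays). Of 836 called genes with several probe sets, 3 had another one called in the opposite direction. For some named genes other probe sets were not called, among them Aif1 (-0.18), Bdnf (-0.14), Fdft1 (-0.14), Mmp9 (-0.35) and Tyrp1 (0.37). Group means were fitted with limma 3.58.1 (R 4.3.3) to all caudal arrays and the uninjured cords, and for the rostral comparison to rostral arrays as well. Late minus intermediate is the mean of the 2 late minus the mean of the 3 intermediate group means. P-values were Benjamini-Hochberg adjusted over all genes tested, at 0.05. The script was tested on simulated data. No 2 of the arrays held identical values.

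The comparison, gene lists and members were chosen with earlier results of these data known. Genes named are the 20 highest and lowest called with every late day mean on 1 side of every intermediate day mean, up to 5 called and 2 abundant uncalled members of a list, the 5 highest and lowest of each further test, and a few markers; not all are printed. Actb had no named probe set. Promoter windows are RefSeq's. Alternatives covered filter, scaling, probe sets, arrays fitted, weights, prior, replicate number, days compared, covariates and each array left out.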

Additional observations from a re-analysis of the deposited data

Results flagged for a closer look

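Of 234 groups (117 genes in each of 2 periods), 10 held an array whose gap to its neighbour was large for the range of its group, where chance gives about 1 in 20. The third array of day 90 was lowest of the late arrays for Ccdc141 (6.62, the next at 7.01), Rfx4 (10.12, the next at 10.42) and Steap4 (6.86, the next at 7.43). The second array of day 20 was highest of the intermediate arrays for Abcg1 (10.81, the next at 10.42) and Aoc1 (8.02, the next at 5.82) and lowest for Gal3st1 (8.13, the next at 8.61). Ccnd1 was lowest in the second array of day 10 (10.17, the next at 10.58), Pax6 in the third of day 10 (7.73, the next at 8.05) and Vim in the first of day 20 (13.60, the next at 13.79). Postn was highest of the late arrays in the first of day 60 (8.13, the next at 6.68).

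The late minus intermediate difference itself differed between sets of arrays for 4 genes by a test of the difference: Vip (-1.52) and Aoc1 (-1.30), caudal minus rostral, and RT1-CE10 (1.69) and RT1-CE12 (0.74), LC minus NT3. Among 5430 probe sets without a gene name, 673 were called between the periods (12.4%; 474 higher and 199 lower). Their differences ran from -1.64 to 1.38.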

How the results depend on the processing

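The count of 2424 genes between the periods was 2116 to 3587 under the filters, scalings, probe set means, prior, covariates, pooled fit, array weights, days 20 and 30 alone and RT1-CE10-matched days (2116). It was 1257 with the compared groups alone and 712 with the period as the group. It was 1186 in the RT1-CE10-low days, 444 between the high days (281 higher, 163 lower), 809 with day 30 as the only intermediate day (414 and 395), 1044 without both ganglion-high arrays and 1497 without both arrays highest in Cd68 and Mmp12. The day 30 and RT1-CE10 settings, both array pairs and the muscle and ganglion covariates were chosen after seeing the data. The 90 genes past 2-fold numbered 57 with array weights, 54 in matched days, 155 in the low days, 27 between the high days, 36 with day 30 only and 57 without the Cd68-high arrays. With the compared groups alone, day 30 minus day 10 gave 185 genes, day 60 minus day 30 gave 187, day 90 minus day 60 gave 2, caudal minus rostral 0 and LC minus NT3 1. With array weights (estimation stopped before convergence) day 60 minus day 30 gave 4572, day 90 minus day 60 gave 2422, rostral LC 4593, caudal minus rostral 833, ET 3619, LC minus ET 920, NT3 6048 and LC minus NT3 67. Day 90 minus day 60 gave 176 with probe set means, and its split of 86 higher and 13 lower became 49 and 17 after scaling. Caudal minus rostral gave 1 with the stricter filter and 4 with all arrays, and LC minus ET 4 after quantile normalisation, 5 after scaling and 3 with all arrays. Leaving out each array in turn gave 1428 to 2989 genes (lowest without the third array of day 60) and 75 to 107 past 2-fold. The steps gave 503 to 1494, 218 to 454 and 25 to 318, rostral LC 1257 to 1896, caudal minus rostral 1 to 3, ET 702 to 1279, LC minus ET 0 to 23, NT3 2664 to 4057 and LC minus NT3 1 to 3. The replicate block gave 2411 genes (90 past 2-fold). Between different days of caudal LC cord, 30 same-number pairs correlated at -0.61 to 0.47 (median -0.037, against 0.021 for other numbers). Arrays of different days cannot show whether a shared number within a day marks 1 animal. Caudal and rostral arrays of the same day and number were not checked.

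Signs reversed for RT1-CE10 (-0.23 for days 20 and 30, -0.20 matched, -0.53 high days, -2.27 day 30 only), RT1-CE12 (-0.36, -0.28, -0.53 and -1.14), Cd36 (0.32 high days, 0.25 day 30 only), Scd (0.050 and 0.031) and Slc3a1 (-1.75, day 30 only). The cause was not tested, beyond the fewer arrays that some settings hold. Over the genes named, 2182 values in other settings counted as unchanged. For a called gene this meant the same direction and a kept call. For an uncalled gene it meant no call and a difference that moved by less than the gene's residual spread. Of the other values 238 lost the call, 7 gained it, 13 reversed and 14 moved by more than that spread. A change of sign in a gene called in neither setting was not counted as reversed.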

Other observations

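Immune lists not described above had lower calls and no higher ones. Of 16 tested antigen presentation genes 5 were lower (median -0.12), of 18 T cell genes 3, of 9 B cell genes 2 and of 23 interferon genes 1. Among 20 cathepsin and lysosome genes 4 were higher and 2 lower. Oligodendrocyte precursor genes (3 higher and 2 lower of 10), chondroitin sulfate proteoglycans (2 higher and 3 lower of 14), inhibitory transmission (2 and 2 of 17) and motor neurons (2 higher and 1 lower of 12) had calls in both directions, and neural progenitors (3 higher of 18) and synaptic transmission (2 higher of 25) had higher calls alone. Hypoxia and glycolysis genes (4 higher and 3 lower of 20), heat shock genes (3 and 1 of 14), clock genes (2 higher of 16) and immediate early genes (3 lower of 21) changed in small part. None of 7 ependymal and 5 serotonin receptor genes was called. Over all genes 8.35% were higher and 11.8% lower.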
